A study of Homo sapiens with 6 samples.

Results

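The G1 cyclins, cyclin-dependent kinases (CDKs) and CDK inhibitors were described as 10 genes (CCND1, CCND2, CCND3, CDK2, CDK4, CDK6, CDKN1A, CDKN1B, CDKN2A and CDKN2C), found by gene symbol among the 60504 genes of a bulk RNA-seq count table, each as a single entry. The table held 6 libraries of WM164, a BRAF-mutant human melanoma cell line. All 6 came from cells carrying a plasmid and kept in hygromycin. In 3 libraries the plasmid was the empty vector (EV) and in 3 it was an HDAC8 construct, HDAC8 being a class I histone deacetylase. The sources do not say whether each line was a clone or a pool, or whether the replicates were separate cultures, so p-values measure the spread between these libraries, which may be technical.

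Progression through G1 is set by D-type cyclins, which bind and activate CDK4 and CDK6. These kinases phosphorylate the retinoblastoma protein and so release E2F factors, after which CDK2 carries the cell into S phase. INK4 proteins block CDK4 and CDK6, and CIP/KIP proteins such as p21 and p27 chiefly restrain CDK2. In melanoma, BRAF signalling feeds cyclin D1 and the INK4 locus CDKN2A is a major susceptibility gene.

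Of the 10 genes, CDK6 rose in the libraries labelled HDAC8, by 2.20-fold, and CDK2, CDKN1B and CDKN2A fell, by 1.70-fold, 1.79-fold and 1.59-fold. The kinase that rose partners the D cyclins, and the transcripts that fell encode the S phase entry kinase, p27 and the p16 and ARF proteins. The other 6 genes were not called. A call needed a DESeq2 adjusted p under 0.05 and a log2 fold change of at least 0.58 (1.49-fold). By the same rule 5.57% of all genes with an adjusted p were called higher and 5.44% lower, 11.0% in either direction. Among genes averaging 500 normalized counts or more, which took in every one of the 10 but CCND2, 16.3% were called. The median log2 fold change was -0.47 over the 10 genes and -0.00 over all genes with an adjusted p. The groups did not overlap for 7 of the 10 genes, against 24.0% of all genes tested and 39.0% of those averaging 500 or more. Every HDAC8 library was higher for CCND1 and CDK6 (11.3% of all genes tested) and lower for CCND3, CDK2, CDK4, CDKN1B and CDKN2A (12.7%).

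**Figure D1:**
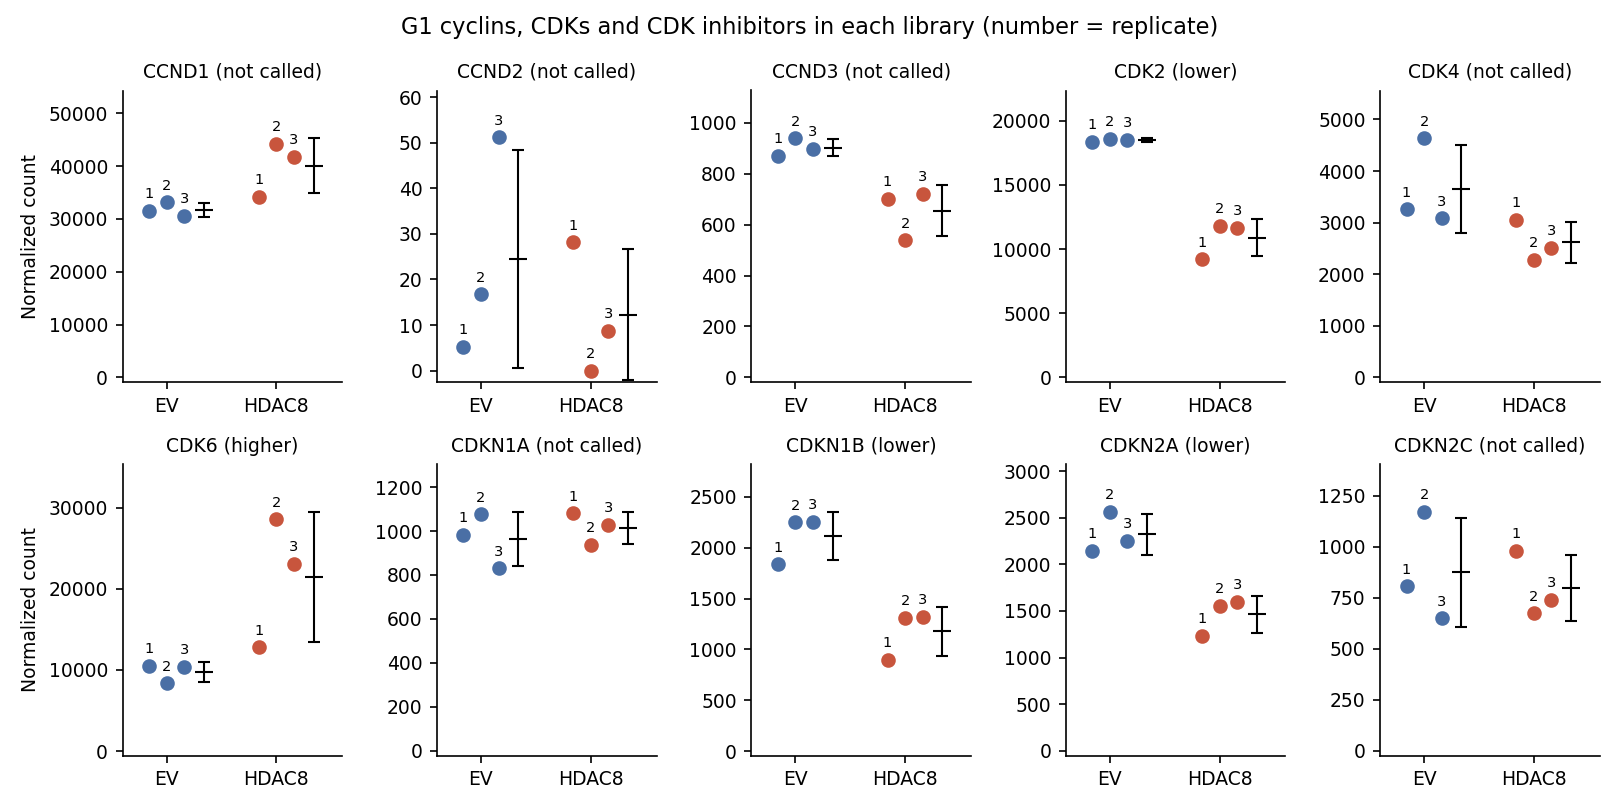
Normalized count (linear axis, a separate scale for each gene) of the 10 genes in the 3 EV libraries (blue) and the 3 HDAC8 libraries (red), numbered by replicate, with the mean and SD beside them in black. CDK6 is higher in every HDAC8 library, with HDAC8 1 far below HDAC8 2 and 3, and CDK2, CDKN1B and CDKN2A are lower in every HDAC8 library.

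The libraries held 34741083 to 42041462 counts. HDAC8 transcript was 383.8, 404.4 and 478.8 normalized counts in EV and 484.8, 445.5 and 473.7 in HDAC8, with overlapping groups (DESeq2 log2 fold change 0.15 with SE 0.28, adjusted p = 0.856), so it gave no check of the labels. HDAC8 1 stood apart from its group. Its counts differed from those of HDAC8 2 and HDAC8 3 by a chi-square per degree of freedom of 153.4 and 101.7, against 26 between the latter. Relative to the mean of HDAC8 2 and 3, its median level was 0.19 log2 units higher for transcripts under 1 kb and 0.19 lower (-0.19) for those over 8 kb. Mitochondrial transcripts took 9.66% to 12.8% of counts in EV and 4.46% to 7.94% in HDAC8. Of 8 melanocyte lineage markers 5 fell and none rose, at a summed 244960.8 to 328760.5 normalized counts in EV and 137043.5 to 182217.7 in HDAC8. The same counts were found by edgeR and at an unadjusted p under 0.05, and limma-voom gave 4 lower. Markers of other cell types were present in part. The 5 fibroblast markers summed to 2488.9 to 2877.4 normalized counts in EV and 1461.3 to 2423.1 in HDAC8, most of it LUM, with DCN at 0 in all 6 libraries. PDGFRA was called higher in that list (log2 fold change 1.16, adjusted p = 0.0377), but not by edgeR, limma-voom, with the replicate block or without HDAC8 1, while LUM (-0.60) and COL1A1 (-1.46) were not called. The 4 keratinocyte markers summed to 146.6 to 280.0 in EV and 165.5 to 176.2 in HDAC8 (KRT1 at 0), and the 3 endothelial markers to 97.5 to 202.9 and 114.3 to 218.0 (CDH5 at 0). The T cell marker CD3E, at 0 in EV, was at 50.1 to 91.1 in HDAC8. Without mitochondrial genes the calls of the 10 genes did not change. Among the 10, values without HDAC8 1 are given for CCND1, CDK4, CDK6 and CDKN2A. The part of the marker differences in the results was not tested. In bulk RNA, fewer expressing cells and less RNA per cell cannot be told apart.

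Promoter sequences are shown for called genes, at the start of the canonical transcript for CDK6 and at both starts for CDKN2A. CDK4, not called, is shown for comparison with CDK6. The counts are per gene, so which start gave the transcripts that differed was not tested. RefSeq promoters (GRCh38.p14) were found for 7 of the 10 genes, not for CCND1, CCND2 and CDK2. Each line gives the 250 bases before a start, 5′ to 3′ on the strand of the gene. Capitals mark a match on either strand to any of 6 motifs, namely the AP-1 motif TGANTCA, the E-boxes CACGTG and CATGTG, the E2F motif TTTNNCGC, the TEAD motif GGAATG and the GC box GGGCGG. The windows are chr7:92836574-92836823 (minus strand) for CDK6, chr12:57752311-57752560 (minus) for CDK4, chr12:12717118-12717367 (plus) for CDKN1B, chr9:21995325-21995574 (minus) for the upstream CDKN2A start that gives ARF, and chr9:21974858-21975107 (minus) for the downstream start that gives p16.
CDK6: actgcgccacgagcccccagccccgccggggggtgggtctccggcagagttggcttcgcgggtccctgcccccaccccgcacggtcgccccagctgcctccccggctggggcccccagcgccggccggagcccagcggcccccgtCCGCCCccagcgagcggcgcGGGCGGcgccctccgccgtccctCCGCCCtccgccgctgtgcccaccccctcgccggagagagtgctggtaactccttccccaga
CDK4: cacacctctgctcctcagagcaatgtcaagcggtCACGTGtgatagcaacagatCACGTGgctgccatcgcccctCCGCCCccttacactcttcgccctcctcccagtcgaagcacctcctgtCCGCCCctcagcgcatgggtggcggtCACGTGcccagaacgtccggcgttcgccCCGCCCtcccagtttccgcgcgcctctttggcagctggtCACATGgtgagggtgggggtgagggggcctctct
CDKN1B: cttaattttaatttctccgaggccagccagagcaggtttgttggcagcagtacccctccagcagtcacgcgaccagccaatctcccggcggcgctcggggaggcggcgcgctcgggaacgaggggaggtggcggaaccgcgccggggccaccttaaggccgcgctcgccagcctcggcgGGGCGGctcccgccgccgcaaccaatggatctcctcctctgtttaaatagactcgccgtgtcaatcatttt
CDKN2A upstream start: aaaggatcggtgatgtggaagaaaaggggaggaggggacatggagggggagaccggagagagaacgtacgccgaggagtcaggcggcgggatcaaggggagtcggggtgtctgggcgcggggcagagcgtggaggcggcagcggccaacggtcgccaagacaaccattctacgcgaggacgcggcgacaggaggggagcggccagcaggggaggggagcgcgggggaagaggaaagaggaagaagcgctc
CDKN2A downstream start: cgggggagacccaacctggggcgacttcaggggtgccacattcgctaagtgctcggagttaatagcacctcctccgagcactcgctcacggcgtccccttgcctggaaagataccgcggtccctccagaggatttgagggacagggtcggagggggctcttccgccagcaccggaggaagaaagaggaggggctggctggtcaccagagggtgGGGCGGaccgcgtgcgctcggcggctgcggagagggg

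The CDK6 window was 80.0% G and C and its matches were 3 GC boxes. A second CDK6 start, with the window chr7:92833960-92834209 (minus), was 67.6% G and C and had no match. The CDK4 window, 65.6% G and C, held 3 GC boxes, 3 CACGTG E-boxes and 1 CATGTG E-box. CDKN1B and the downstream CDKN2A start held 1 GC box each, and the upstream CDKN2A start had no match. Over 35116 windows of this length, 42.6% held a GC box, 6.34% CACGTG, 9.42% CATGTG, 6.57% the AP-1 motif, 5.92% the E2F motif and 11.9% the TEAD motif. The median window was 58.0% G and C. A match describes letters only, and no match says only that these letters are not in the window.

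CCND1, cyclin D1, on chr11:69641156-69654474 (plus strand), was the most abundant D cyclin. It was 31511.5, 33150.0 and 30583.3 normalized counts in EV and 34186.1, 44174.6 and 41730.8 in HDAC8. Every HDAC8 library was above every EV library, with HDAC8 1 closest to EV. The fold was 1.26 (95% interval 1.05 to 1.51) and the gene was not called (DESeq2 log2 fold change 0.33 with SE 0.13, adjusted p = 0.0773). Without HDAC8 1 the DESeq2 log2 fold change was 0.43 (adjusted p = 1.19e-05). That passed the adjusted p threshold but stayed under the fold minimum. With any other library left out the DESeq2 adjusted p was 0.105 to 0.336, so the gene was not called in any of these fits. Part of its last stretch, 497 exonic bases, is shared with LTO1 on the opposite strand, whose log2 fold change was 0.32 (adjusted p = 0.455).

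CCND3, cyclin D3, was 870.3, 939.5 and 899.4 normalized counts in EV and 702.9, 539.7 and 722.0 in HDAC8. The groups did not overlap, and the gene was not called (DESeq2 log2 fold change -0.46 with SE 0.24, adjusted p = 0.21). With scaling done within bins of transcript GC content, an alternative chosen after seeing the data, CCND3 passed (-0.60, adjusted p = 0.0312, with 0.0312 to 1.0 over its alternatives). CCND2, cyclin D2, was close to absent, at 5.24, 16.8 and 51.2 normalized counts in EV and 28.2, 0.0 and 8.71 in HDAC8. The groups overlapped and no difference was detectable at these counts (log2 fold change -0.98, SE 1.59). Per kilobase of canonical transcript, CCND1 made up 94.1% to 94.5% of D cyclin transcript in EV and 95.8% to 97.5% in HDAC8.

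CDK6, a kinase of the cyclin D complexes, lies on chr7:92604921-92836573 (minus strand). It was 10501.7, 8360.6 and 10406.9 normalized counts in EV and 12790.3, 28558.4 and 23056.4 in HDAC8. All HDAC8 libraries were above all EV libraries, but HDAC8 1 lay 1.0 log2 unit below the mean of the other two (-1.0). The mean was 9756.4 ± 1209.8 (SD, n = 3) in EV and 21468.4 ± 8003.1 (SD, n = 3) in HDAC8, a fold of 2.20 (95% interval 1.64 to 2.96; DESeq2 log2 fold change 1.14 with SE 0.22, adjusted p = 6.3e-06). CDK6 has the longest canonical transcript of the 10, 11.7 kb, in the length class where HDAC8 1 was low. Without HDAC8 1 the log2 fold change was 1.40, and with scaling within bins of transcript length it stayed called.

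CDK4, the other cyclin D kinase, was 3257.0, 4634.2 and 3082.5 normalized counts in EV and 3053.5, 2281.8 and 2513.3 in HDAC8. The groups did not overlap, by a narrow gap between EV 3 and HDAC8 1. It was not called over all libraries (DESeq2 log2 fold change -0.48 with SE 0.20, adjusted p = 0.0864), and it was called lower without HDAC8 1 (-0.61, adjusted p = 0.00784, with 0.00206 to 1.0 over its alternatives). CDK4 shares 1369 exonic bases with TSPAN31 on the opposite strand. TSPAN31 had a log2 fold change of -0.33 (adjusted p = 0.437), and reads of both genes cannot be told apart without strand. Before rounding, counts were fractional in all 6 libraries for CDK4 and CCND1, in 5 for CDKN2A and in 0 for CDK2.

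CDK2, the kinase of cyclins E and A, lies on chr12:55966781-55972789 (plus strand). It was 18354.7, 18612.4 and 18545.0 normalized counts in EV and 9207.5, 11823.8 and 11647.4 in HDAC8. The EV libraries lay almost on one level, with a coefficient of variation of 0.722% against a median of 15.0% over genes with a mean of at least 50, and all HDAC8 libraries were far below them. The mean fell from 18504.0 ± 133.6 (SD, n = 3) to 10892.9 ± 1462.3 (SD, n = 3), with a DESeq2 log2 fold change of -0.76 with an SE of 0.14 (adjusted p = 1.04e-06).

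The CDK2 gene overlaps PMEL, a melanosome gene on the opposite strand, with 89 shared exonic bases, and strand use in counting is not given in the sources used here. PMEL was 169800.1, 247771.6 and 182523.3 normalized counts in EV and 147944.3, 89540.4 and 94276.0 in HDAC8, and it fell (DESeq2 log2 fold change -0.86 with SE 0.19, adjusted p = 0.000174). PMEL was 1.41 times as high in EV 2 as in the mean of EV 1 and 3, where CDK2 was at 1.01 times. In HDAC8 1 PMEL was at 1.61 times the mean of HDAC8 2 and 3, and CDK2 at 0.785 times. The part of PMEL reads in the CDK2 counts was not tested.

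**Figure D2:**
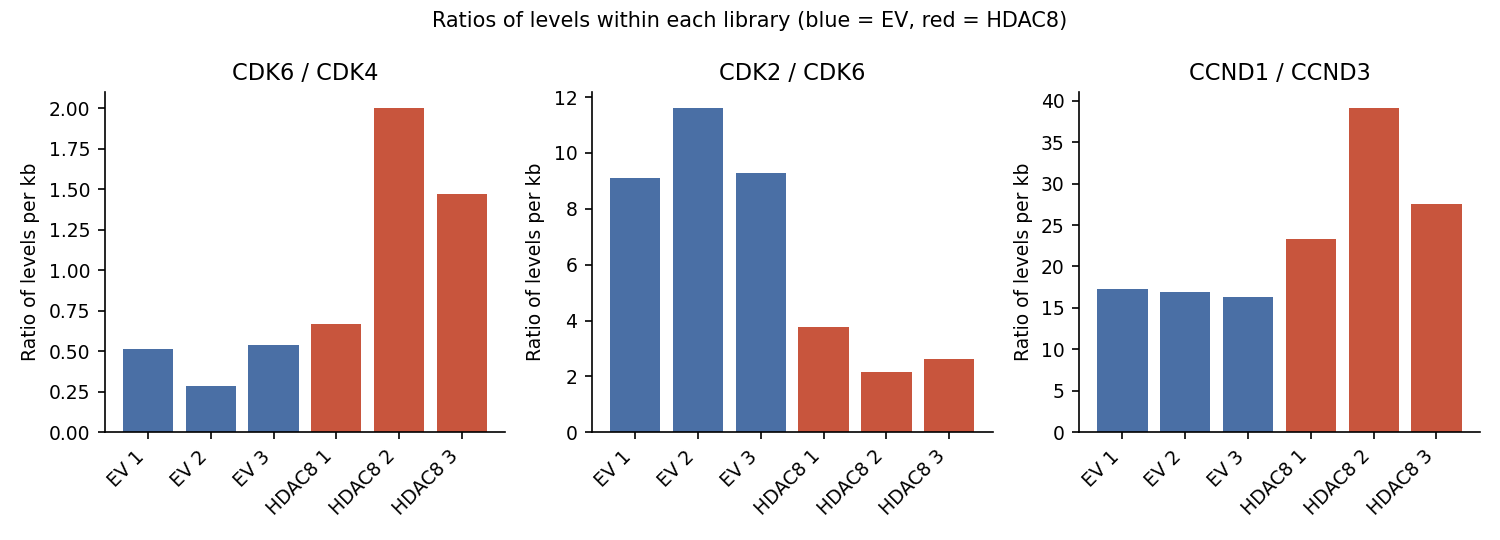
Ratio of levels per kilobase of canonical transcript (linear axes from 0) in each library, EV in blue and HDAC8 in red, for CDK6 over CDK4, CDK2 over CDK6 and CCND1 over CCND3. CDK6 over CDK4 is 0.288 to 0.540 in EV and 0.670 to 2.00 in HDAC8, and CDK2 over CDK6 is 9.10 to 11.6 in EV and 2.16 to 3.75 in HDAC8.

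The balance of the kinases differed between the groups in every library, as a description with no test. CDK6 per kilobase was 34.0%, 22.4% and 35.1% of the sum of CDK4 and CDK6 in EV and 40.1%, 66.7% and 59.5% in HDAC8. HDAC8 1 was close to the EV libraries in this share. The level of CDK2 per kilobase was 3.10, 2.60 and 3.25 times the summed CDK4 and CDK6 in EV and 1.44 to 1.56 times in HDAC8.

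CDKN1B, p27, on chr12:12685498-12722369 (plus strand), was 1838.2, 2248.0 and 2255.0 normalized counts in EV and 900.4, 1313.0 and 1322.0 in HDAC8. The highest HDAC8 library was below the lowest EV library, and HDAC8 1 was the lowest. The DESeq2 log2 fold change was -0.84 with an SE of 0.21 (adjusted p = 0.00114), a fold of 0.557 (95% interval 0.418 to 0.742). CDKN1A, p21, was 982.5, 1075.9 and 831.4 normalized counts in EV and 1080.0, 937.1 and 1028.0 in HDAC8. These groups overlapped, and the fold of 1.05 had a 95% interval of 0.785 to 1.41 (DESeq2 adjusted p = 0.916). Per kilobase, p21 over p27 transcript was 0.609, 0.545 and 0.420 in EV and 1.37, 0.813 and 0.886 in HDAC8. These ratios depend on the length used. Per kilobase of all exons joined, the means were 321.5 for p21 and 228.4 for p27 in EV and 338.8 and 127.3 in HDAC8, so p21 was the higher in both groups.

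CDKN2A, on chr9:21967752-21995301 (minus strand), encodes p16 and, from its upstream start, ARF, and the gene count pools both. It was 2146.5, 2562.7 and 2252.0 normalized counts in EV and 1236.4, 1554.7 and 1600.8 in HDAC8. No HDAC8 library reached the lowest EV library. The DESeq2 log2 fold change was -0.67 with an SE of 0.19 (adjusted p = 0.00473), a fold of 0.631 (95% interval 0.49 to 0.812). The call was lost without EV 2 (-0.59, adjusted p = 0.0596) and, by the fold minimum, without HDAC8 1 (-0.56, adjusted p = 0.00694), with adjusted p from 0.00128 to 1.0 over its alternatives. The gene shares 593 exonic bases with CDKN2B-AS1 on the opposite strand, which was 112.2, 113.9 and 125.1 normalized counts in EV and 156.5, 7.17 and 74.0 in HDAC8.

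CDKN2B, the INK4 gene for p15 next to CDKN2A, was 1675.7, 1683.9 and 1969.3 normalized counts in EV and 971.4, 1119.4 and 992.0 in HDAC8. It fell with no overlap of the groups (DESeq2 log2 fold change -0.79 with SE 0.19, adjusted p = 0.000653). MTAP, a methionine salvage enzyme on the same arm, had overlapping groups (log2 fold change -0.03, SE 0.20, adjusted p = 0.967). Of 6 genes listed around CDKN2A, CDKN2B was the one called. CDKN2C, p18, was 806.4, 1171.2 and 650.2 normalized counts in EV and 980.8, 674.9 and 740.5 in HDAC8. Its groups overlapped and it was not called (log2 fold change -0.13, SE 0.28, adjusted p = 0.874).

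**Figure D3:**
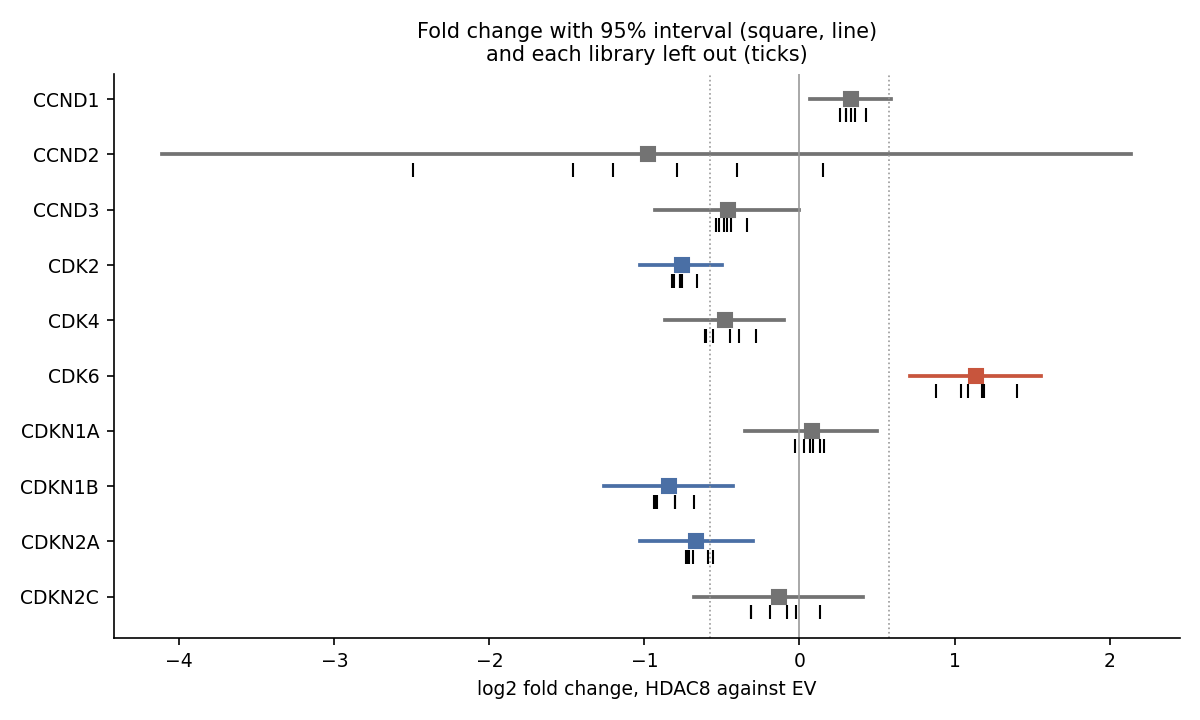
log2 fold change of HDAC8 against EV (squares) with its 95% interval (lines) for the 10 genes, red for called higher, blue for called lower and grey for not called. Ticks below each line give the value with each library left out in turn, dotted lines mark the fold minimum of 0.58, and the CDK6 ticks run from 0.88 to 1.40.

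**Figure D4:**
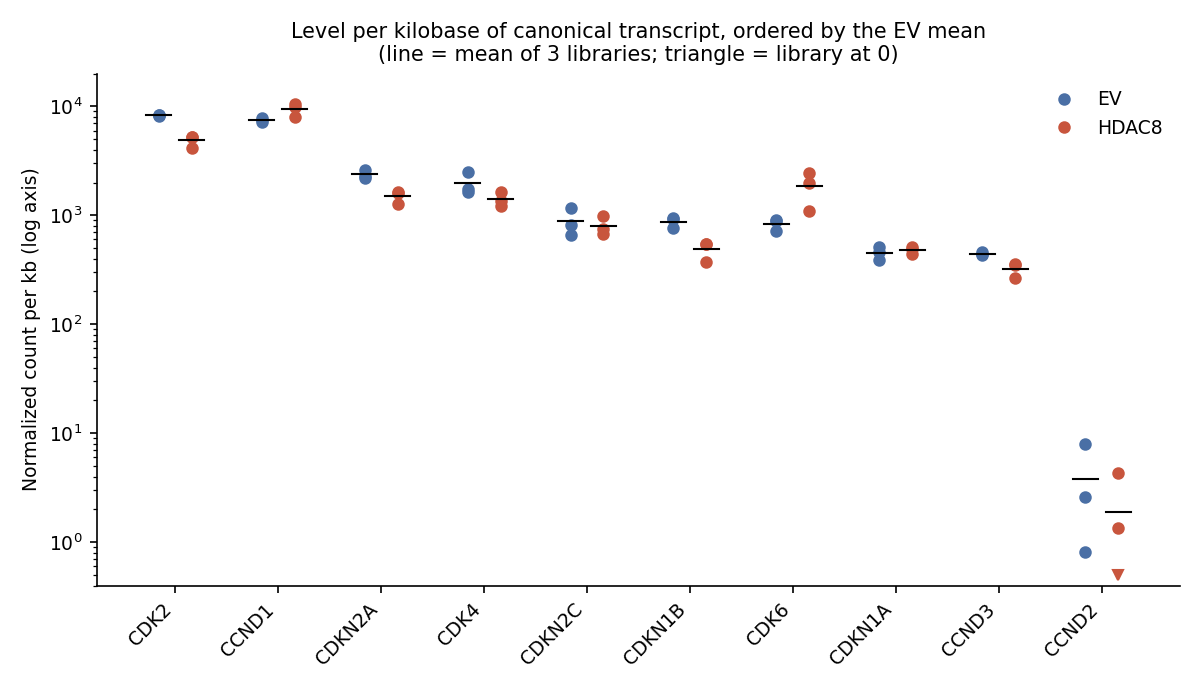
Normalized count per kilobase of canonical transcript (log axis) for the 10 genes in order of their EV mean, with 3 EV libraries (blue) and 3 HDAC8 libraries (red), lines at the means and a triangle for the library at 0. CDK2 and CCND1 lead in EV, at 8260.7 and 7491.3, and CDK6 moves from 836.5 to 1840.7.

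By level per kilobase the order in EV was CDK2, CCND1, CDKN2A, CDK4, CDKN2C, CDKN1B, CDK6, CDKN1A, CCND3 and CCND2. The neighbours CDKN2A and CDK4, CDKN2C and CDKN1B, CDKN1B and CDK6, and CDKN1A and CCND3 had overlapping ranges over the 3 EV libraries. In HDAC8 CCND1 stood first, at 9445.6, with CDK2 at 4862.9, and CDK6 stood next at 1840.7, overlapping CDKN2A at 1496.9. The order depends on the length used. Per kilobase of all exons joined, CCND1 (6668.4) stood above CDK2 (4760.5) in EV too, and CDK6 (797.2) above CDKN2A (597.3).

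**Figure D5:**
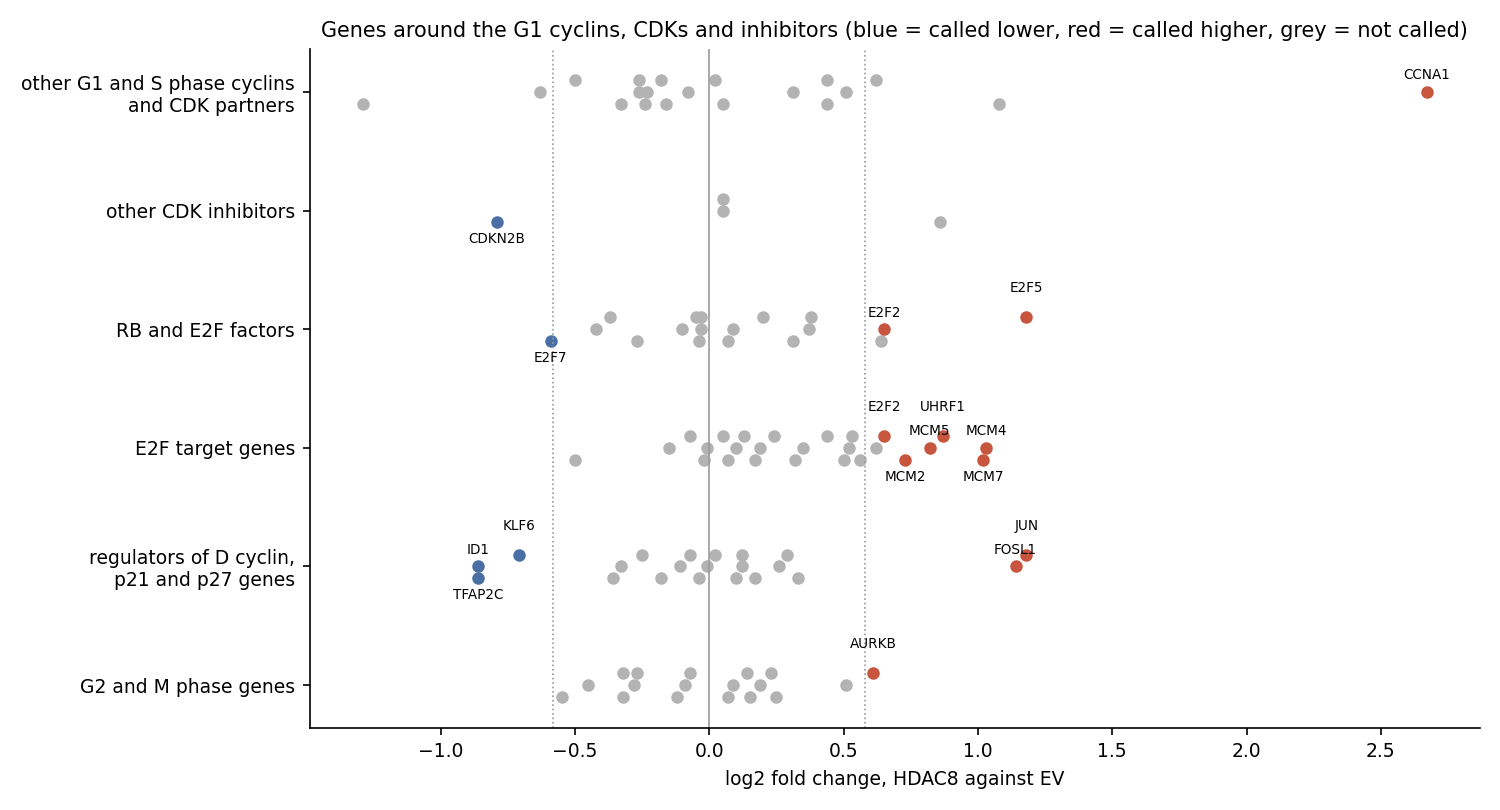
log2 fold change of HDAC8 against EV for each gene of 6 lists around the G1 machinery, 1 point a gene, red for called higher, blue for called lower and grey for not called, with dotted lines at 0.58 and -0.58. All 6 called E2F targets lie to the right of 0, and the list of D cyclin, p21 and p27 regulators has called genes on both sides.

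Around these genes, 6 of 26 E2F target genes rose and 0 fell, with a list median log2 fold change of 0.34 (-0.00 over all genes with an adjusted p). By the same rule 5.57% of all genes with an adjusted p rose and 5.44% fell. Among genes averaging 500 normalized counts or more, which took in every E2F target listed but CCNE1, 16.3% were called in either direction. For the list, an unadjusted p under 0.05 and edgeR gave the same counts, and limma-voom gave 5 and 0. MCM4 (1.03, SE 0.15, DESeq2 adjusted p = 6.87e-10), MCM7 (1.02, SE 0.19, 2.88e-06) and MCM5 (0.82, SE 0.16, 5.11e-06) belong to the replicative helicase, and UHRF1 (0.87, SE 0.21, 0.000474) maintains DNA methylation. Of 18 RB and E2F factors, E2F5 (1.18) and E2F2 (0.65) rose and E2F7 (-0.59), a repressor, fell. The lists share genes, and E2F2 is counted among the E2F target genes too. E2F7 was not called without HDAC8 1, and with the replicate numbers as a block none of the 18 was called. By limma-voom 0 rose and 1 fell, and an unadjusted p under 0.05 gave 3 and 1.

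Of 20 other G1 and S phase cyclins and CDK partners, CCNA1, the cyclin A of the germ line, was the one called. It was 22.0, 38.3 and 15.8 normalized counts in EV and 206.9, 116.8 and 160.1 in HDAC8 (DESeq2 log2 fold change 2.67 with SE 0.64, adjusted p = 0.000555). No gene of this list was called lower by DESeq2, edgeR or limma-voom, and 1 was at an unadjusted p under 0.05. Without HDAC8 1 the list had 3 genes higher and 1 lower, and with scaling within GC bins 4 higher and 0 lower. Of 4 other CDK inhibitors CDKN2B was the one called. AURKB (0.61, SE 0.17, adjusted p = 0.00587), a mitotic kinase, was the one called of 18 G2 and M phase genes. The rise of AURKB was not that of its list, whose median log2 fold change was 0.0. The 18 genes summed to 134198.0 to 156581.9 normalized counts in EV and 113917.3 to 133588.0 in HDAC8, a sum weighted to the most abundant genes.

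Of 21 regulators of the D cyclin, p21 and p27 genes, 2 rose and 3 fell. Over all genes with an adjusted p the shares were 5.57% and 5.44%, and 16.3% of genes averaging 500 or more were called in either direction. Without HDAC8 1 the list had 3 genes higher and 2 lower. JUN (1.18, SE 0.25, 4.62e-05) and FOSL1 (1.14, SE 0.17, 4.3e-09), both AP-1 subunits, rose, and TFAP2C (-0.86, SE 0.18, 5.9e-05) and ID1 (-0.86, SE 0.25, 0.0082) fell.

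The genes whose log2 level ran most like each called gene over the 6 libraries, by Pearson r and as a description, were GPR137B (0.9993), AC009704.1 (0.9987) and PLA1A (0.9984) for CDK2. They were LMAN1 (0.9987), RNF219 (0.9979) and MRPL32 (0.9962) for CDK6. For CDKN1B they were NCOA6 (0.9973), CRTAP (0.9967) and PRSS33 (0.9965), and for CDKN2A HIST2H2BF (0.9988), GNAS (0.998) and WNT5A (0.9952). The points share the 2 groups and the library scaling, and 227 to 465 genes passed 0.95 for each of the 4.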

How the data were processed

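RNA was sequenced from 3 EV and 3 HDAC8 libraries of WM164. The authors trimmed reads with Trimmomatic 0.36, aligned them with STAR 2.7.3a and deposited expected counts per gene from RSEM 1.2.31. The genome build and annotation are not given in the sources used here, and the labels and the study's methods name different RNA extraction kits. The expected counts were rounded to whole numbers and genes with a total of at least 10 (26162) were tested with the DESeq2 1.42.0 Wald test (two-sided, no covariates, Benjamini-Hochberg adjustment over all genes). Independent filtering, a setting that was not fixed in advance, was run at the tool default of 0.1 and then set to the call threshold of 0.05 after the first counts had been seen. At 0.05, 5141 tested genes had no adjusted p. Normalized counts are counts divided by DESeq2 size factors. Coordinates, exons and transcript lengths come from GENCODE 44 (GRCh38), matched by identifier for 56558 of 60504 genes. The fits were also run on simulated counts with the same spread for all genes and no library apart. That run does not show how they act with a library such as HDAC8 1. Alternatives used edgeR 4.0.16, limma 3.58.1, other scalings and filters, a replicate block and each library left out. Samples were grouped by GEO's labels. Named genes were the 10 genes, HDAC8, CDKN2B, MTAP, at most 4 called genes a list with a mean of at least 50, and the 3 genes most like each called gene. LTO1, TSPAN31, PMEL and CDKN2B-AS1 were added for their overlap with these. The members and lists were chosen with earlier results of these data known. Deviations of same-numbered libraries from their group means correlated at -0.027, -0.066 and 0.04. Whether the numbers mark a shared culture or preparation is not given in the sources used here. One list of genes around these and the summed level of one marker list were left out and are not reported here.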

Additional observations from a re-analysis of the deposited data

How the results depend on the processing

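Of 199 values of the 10 genes under the alternatives, 187 kept their direction and their side of the threshold, 6 lost the call, 2 gained it and 4 changed sign. Each change of sign was in a gene that was not called: CCND2 without EV 3 (0.15), CDKN1A without EV 3 (-0.03) and with scaling within GC bins (-0.03), and CDKN2C without EV 2 (0.13). Leaving out each library gave -2.49 to 0.15 for CCND2, -0.03 to 0.16 for CDKN1A and -0.31 to 0.13 for CDKN2C. Testing against the fold minimum called 292 genes higher and 291 lower in place of 1170 and 1143, and 0 of the 10 genes in either direction. That test asks for a change larger than 0.58, and the adjusted p was 0.248 for CDK6 and 1.0 for CDK2, CDKN1B and CDKN2A. At an unadjusted p under 0.05 the counts were 1839 and 1856. Leaving out each library in turn gave 877 to 1218 genes higher and 746 to 1378 lower (746 without EV 3), with 1 of the 10 genes higher throughout and 2 to 3 lower. The default independent filtering level of 0.1 gave 1160 and 1130, with the same 4 genes called. Those 4 were also called by edgeR and limma-voom. Total-count size factors moved the share of calls that were higher from 50.6% to 56.4%, and the calls of the 10 genes did not change. The replicate block gave 1075 and 1078 and changed no call among the 10. No same-numbered pair correlated above 0.1 in its deviations from the group means. With 3 libraries a group, that cannot tell whether a shared number marks a shared culture or preparation. With at least 10 counts in every library CCND2 had no value. The GC and length bins and the filtering level were chosen after seeing the data. With 3 libraries a group, HDAC8 1 apart and CCND2 at a few counts, differences of the size seen in CCND1, CCND3 and CDK4 were not settled.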
